A study of Homo sapiens with 6 samples.

Results

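Genes for the stress sensors of the endoplasmic reticulum and for the kinases and phosphatase subunits that act on eIF2 were read from a table of 3' end counts. The cells were A549, an established line from a human lung carcinoma. They were chosen by name, as rows of the table whose official symbol was on a list of 10, and all 10 were found among the 19240 genes of the table. The list holds ERN1 and XBP1 of the IRE1 arm, ATF6 and ATF6B, the 4 eIF2 kinase genes EIF2AK1, EIF2AK2, EIF2AK3 and EIF2AK4, and the phosphatase subunit genes PPP1R15A and PPP1R15B. All 10 passed the filter on low counts that left 11886 genes for testing. One group of cells had 25 mM glucose for 48 h and the other had none for the same time. Each group has 3 libraries, and no genetic change or other agent is named for either. Libraries held 6701004 to 14259943 counts in genes. The labels do not say whether the 3 libraries of a group are separate cultures. The p-values therefore reflect spread among these libraries alone, and that spread may be technical.

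When unfolded proteins build up in the endoplasmic reticulum, 3 membrane proteins sense them. IRE1, encoded by ERN1, cuts an intron out of the XBP1 message, and the spliced message encodes an active transcription factor. ATF6 and its relative ATF6B travel to the Golgi, where proteases free a transcription factor from the membrane. PERK, encoded by EIF2AK3, phosphorylates the initiation factor eIF2, which lowers protein synthesis overall while favouring translation of ATF4. GCN2 (EIF2AK4), PKR (EIF2AK2) and HRI (EIF2AK1) phosphorylate the same site in response to amino acid shortage, double-stranded RNA, and heme or mitochondrial stress. PPP1R15A, also called GADD34, and PPP1R15B, also called CReP, bring protein phosphatase 1 to eIF2 and remove the phosphate. The sensors, XBP1 and the kinases are mainly controlled by cleavage, splicing and phosphorylation, none of which a count of messages measures.

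Without glucose, ATF6 and XBP1 rose, PPP1R15A rose by less and near the threshold, and none of the 4 eIF2 kinase genes passed the test. ATF6 rose 2.36-fold, XBP1 1.97-fold and PPP1R15A 1.63-fold. No member fell. The 3 that rose are 30% of the 10. Of all genes tested 22.3% passed in either direction. As shares of all genes tested, 11.6% were higher and 10.7% lower without glucose. The groups did not overlap for 4 members, or 40%, against 40.4% of all genes tested. All 4 were higher without glucose, against 21.0% of all genes in that direction and 19.4% in the other. Read against that background, the members as a group changed about as often as genes at large. Their median log2 fold change was 0.17, and that of all genes tested was 0.02.

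**Figure D1:**
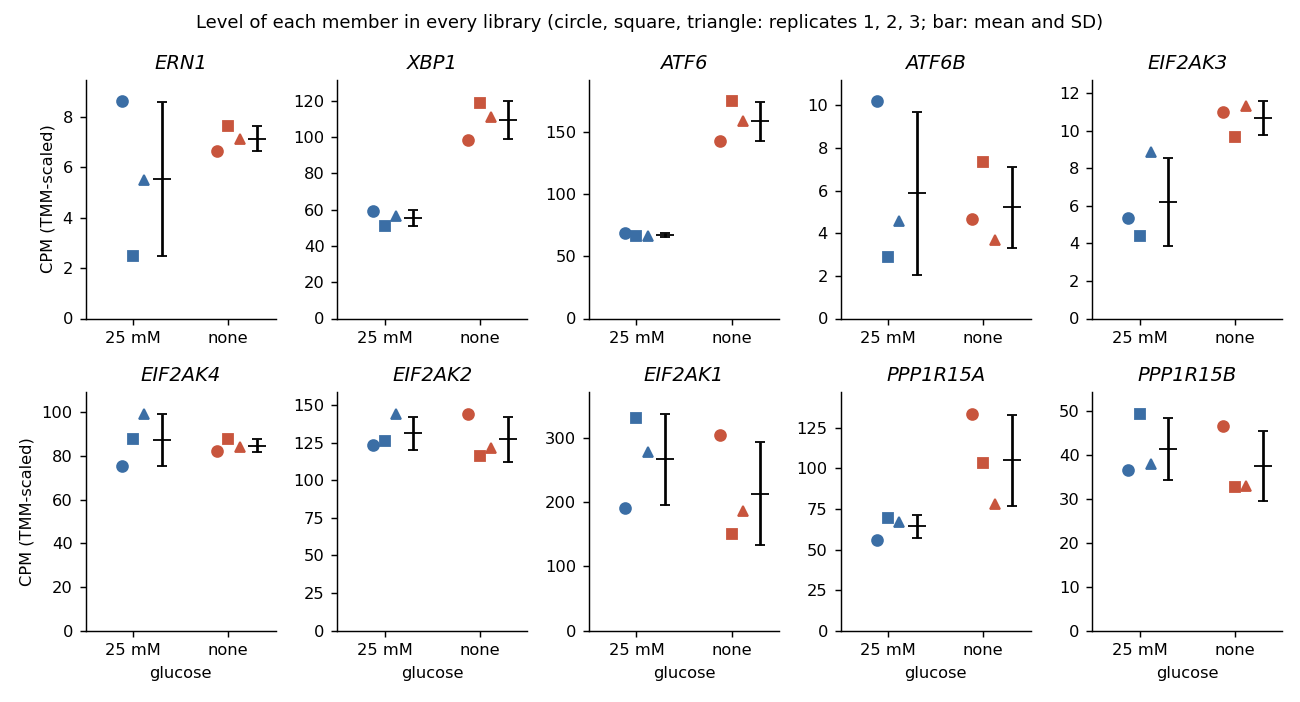
Level of each member in TMM-scaled CPM in the 3 libraries with 25 mM glucose (blue) and the 3 without (red). Circles, squares and triangles are replicates 1, 2 and 3, and the black bars are the mean and SD; the vertical scale differs between panels. XBP1, ATF6, EIF2AK3 and PPP1R15A have all red points above all blue points.

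XBP1 is shown first by sequence, because a part of it decides what its counts can say. The intron that IRE1 removes, in capitals below, is 26 bases long, and its loss shifts the reading frame since 26 is not a multiple of 3. Both forms come from GENCODE transcript models. The cut can be placed at 7 positions that leave the same spliced sequence, and 1 of them is shown.
Unspliced XBP1: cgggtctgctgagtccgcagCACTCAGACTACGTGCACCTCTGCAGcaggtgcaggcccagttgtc
Spliced XBP1: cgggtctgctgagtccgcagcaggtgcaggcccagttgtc
In the models the intron ends 1255 bases before the 3' end of the unspliced form, and the 1250 bases that follow it in the spliced form are the same in both. Counts from transcript 3' ends therefore join the unspliced and spliced messages in 1 value.

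ERN1 (Entrez 2081) encodes the IRE1 sensor itself and was counted thinly. Its levels were 8.62, 2.50 and 5.49 CPM in replicates 1, 2 and 3 with glucose and 6.64, 7.65 and 7.15 CPM without glucose. CPM are counts scaled to the TMM-adjusted library size, and these values rest on 26 to 100 reads each. The libraries with glucose were both the highest and the lowest of the 6, and the groups overlapped. The log2 fold change was 0.39 ± 0.38 (SE), with an approximate 95% interval of −0.42 to 1.21 (adjusted p = 0.482 in the edgeR quasi-likelihood fit, Benjamini-Hochberg over all genes tested). It was 0.82 without replicate 1 with glucose and 0.04 without replicate 2 with glucose, so a single control library sets its size. The interval spans no change and a rise past the one seen for XBP1.

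XBP1 (Entrez 7494), the message that IRE1 cuts, rose. Its levels were 59.1, 50.8 and 56.5 CPM with glucose and 98.5, 119 and 111 CPM without. The lowest library without glucose stood well above the highest with it. The mean went from 55.5 ± 4.22 to 109 ± 10.3 CPM (SD, n = 3 per group), a log2 fold change of 0.98 ± 0.19 (adjusted p = 0.00388, edgeR). XBP1 passed under all 12 alternative settings, with log2 fold changes of 0.90 to 1.05. The values describe total XBP1 message and leave the spliced share unmeasured.

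ATF6 (Entrez 22926), the larger of the increases, had levels of 68.7, 66.8 and 66.3 CPM with glucose. Without glucose they were 143, 175 and 159 CPM. The 3 control libraries differed by 1.04-fold at most, less than any other member's did. The log2 fold change was 1.24 ± 0.19 (adjusted p = 8.92e-04, edgeR), from 67.2 ± 1.27 to 159 ± 15.9 CPM (SD, n = 3 per group). ATF6 also passed under all 12 alternatives, with values from 1.15 to 1.31.

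ATF6B (Entrez 1388) encodes the related factor, described as the weaker activator. It had 10.2, 2.88 and 4.57 CPM with glucose and 4.65, 7.35 and 3.68 CPM without, from 30 to 96 reads per library. The groups overlapped fully, and replicate 1 with glucose was the highest. Its log2 fold change was −0.13 ± 0.44 (approximate 95% interval −1.09 to 0.82, adjusted p = 0.853, edgeR). The sign turned, to 0.47 without replicate 1 with glucose and to 0.08 without no-glucose replicate 3. ATF6B lies in the major histocompatibility region, which has alternate haplotypes in the assembly. Whether these were in the alignment index is not given in the sources used here, and reads with more than 1 alignment, 18.4% to 22.2% of each library, stayed out of the gene counts.

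EIF2AK3 (Entrez 9451) encodes PERK, the eIF2 kinase of the endoplasmic reticulum. Its levels were 5.37, 4.42 and 8.87 CPM with glucose and 11.0, 9.64 and 11.3 CPM without. The groups did not overlap, though replicate 3 with glucose came close to the no-glucose libraries. The log2 fold change of 0.76 ± 0.29 did not pass (approximate 95% interval 0.12 to 1.40, unadjusted p = 0.0231, adjusted p = 0.0811, edgeR). Leaving out replicate 3 with glucose gave 1.13 and an adjusted p of 0.0310, and under the other 11 alternatives EIF2AK3 did not pass. Each value rests on 38 to 154 reads.

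EIF2AK4 (Entrez 440275) encodes GCN2, which binds uncharged tRNA when amino acids run short. It had 75.3, 87.8 and 99.2 CPM with glucose and 82.1, 87.9 and 84.0 CPM without. The libraries without glucose lay inside the range of those with it. Its log2 fold change was −0.05 ± 0.19, and the approximate 95% interval of −0.47 to 0.37 leaves out a change as large as that of XBP1 in either direction (adjusted p = 0.882, edgeR).

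EIF2AK2 (Entrez 5610) encodes PKR, an interferon-induced kinase that binds double-stranded RNA. Its levels were 124, 126 and 144 CPM with glucose and 144, 116 and 121 CPM without. The groups overlapped, and the log2 fold change was −0.04 ± 0.19 (approximate 95% interval −0.46 to 0.38, adjusted p = 0.891, edgeR). For EIF2AK2 and EIF2AK4 the interval is among the narrowest of the members that did not pass, so a change of the size seen for XBP1 would lie outside it.

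EIF2AK1 (Entrez 27102) encodes HRI and was the most uneven of the well-counted members. It had 191, 331 and 278 CPM with glucose and 303, 150 and 186 CPM without. Replicate 1 was the lowest of its group with glucose and the highest without it, and the groups overlapped. For EIF2AK1 the log2 fold change was −0.32 ± 0.28 (approximate 95% interval −0.94 to 0.29, adjusted p = 0.437, edgeR). It was −0.14 without replicate 2 of either group and −0.67 without no-glucose replicate 1. With 1352 to 3949 reads per library, counting error alone would give a coefficient of variation of 2.07% with and 2.02% without glucose, against 26.5% and 37.7% observed. EIF2AK1 overlaps AIMP2 in the RefSeq annotation of GRCh38.p14, and since the strand setting of the counting is not given, reads in the shared stretch cannot be assigned with certainty. AIMP2 itself had 132, 100 and 93.0 CPM with glucose and 75.6, 95.4 and 97.5 CPM without. EIF2AK2 likewise overlaps GPATCH11, and EIF2AK3 overlaps a pair of long noncoding RNA genes.

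**Figure D2:**
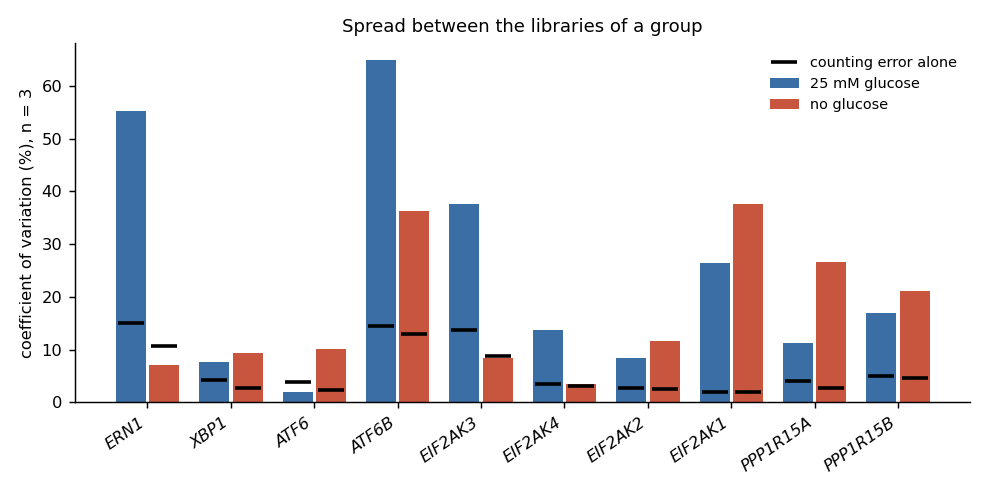
Coefficient of variation in percent over the 3 libraries of each group for every member (bars, blue with 25 mM glucose, red without), with the value that counting error alone would give (black marks). EIF2AK1 reaches 37.7% where counting gives 2.02%, and ATF6 with glucose lies below its mark at 1.89%.

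The spread between libraries of a group differed widely between members. ATF6, XBP1, EIF2AK2 and EIF2AK4 were among the steady genes. Only 3.03%, 5.57%, 8.48% and 8.74% of the 11886 genes tested had a smaller SD of log2 CPM within groups. ERN1 and ATF6B were among the least steady, with 90.2% and 94.2% of genes below them. For EIF2AK1 that share was 77.8%. The second principal component of all genes held 17.6% of the variance and did not separate the groups. The 3 libraries with positive scores on it, replicate 1 with glucose (38.6) and replicates 2 and 3 without (20.2 and 4.25), were the 3 lowest in EIF2AK1. What that component reflects was not tested.

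PPP1R15A (Entrez 23645) encodes the stress-induced regulatory subunit that directs phosphatase 1 to eIF2. Its levels were 56.0, 69.5 and 67.3 CPM with glucose and 134, 103 and 77.9 CPM without. The groups did not overlap, but replicate 3 without glucose lay close to the controls. The mean went from 64.3 ± 7.27 to 105 ± 27.9 CPM (SD, n = 3 per group), a log2 fold change of 0.71 ± 0.23 (adjusted p = 0.0442, edgeR). The call is narrow. It was lost with DESeq2-type size factors and with library totals (adjusted p = 0.0502 and 0.0546, edgeR). It was also lost when any of the 3 libraries with glucose or no-glucose replicates 1 and 2 were left out, with adjusted p from 0.0872 to 0.163 (edgeR). Without no-glucose replicate 3 the adjusted p was 0.0330 (edgeR), and DESeq2 on all 6 libraries gave 0.0264.

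PPP1R15B (Entrez 84919) encodes the constitutive counterpart. It had 36.7, 49.5 and 38.0 CPM with glucose and 46.7, 32.8 and 33.1 CPM without, and the groups overlapped. The log2 fold change was −0.14 ± 0.22 (approximate 95% interval −0.62 to 0.33, adjusted p = 0.669, edgeR).

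**Figure D3:**
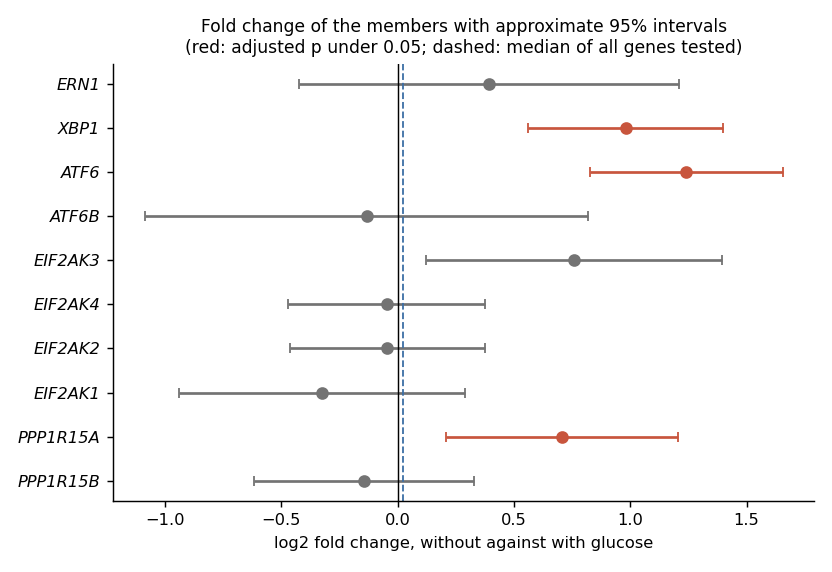
Log2 fold change without against with glucose for the 10 members, with approximate 95% intervals; red marks an adjusted p under 0.05 and the dashed line is the median of all genes tested (0.02). The intervals of ERN1 and ATF6B are the widest, and those of EIF2AK4 and EIF2AK2 lie on both sides of 0.

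Immediate-early and heat-shock genes, which respond to handling as well as to stress, moved in part. Of the 12 on the list 6 rose, beside 11.6% of all genes tested. None fell and 6 did not pass, with a median log2 fold change of 0.93 over the list. Those 6 were FOSB (1.56 ± 0.72), DUSP1 (0.73 ± 0.25), HSPH1 (0.63 ± 0.22), JUNB (0.50 ± 0.26), IER2 (−0.05 ± 0.20) and IER3 (−0.62 ± 0.23). Their summed level was 1896, 1647 and 1640 CPM in replicates 1, 2 and 3 with glucose and 2391, 2760 and 2911 CPM without. Without glucose, replicate 3 had the highest sum and the lowest PPP1R15A, and replicate 1 the lowest sum and the highest PPP1R15A. An order over 3 libraries cannot decide whether they are linked. The sum also follows its abundant genes, such as HSPH1 with 723, 644 and 672 CPM in replicates 1, 2 and 3 without glucose. HSPA1B, an inducible cytosolic chaperone with a near-identical copy in HSPA1A that makes its count uncertain, had a log2 fold change of 1.53 ± 0.24. JUN, an AP-1 subunit, had 1.37 ± 0.27. The part of these genes in the PPP1R15A result was not tested.

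Branches and paralogs were compared by the ratio of their counts within each library, which does not depend on how libraries are scaled. In all 7 ratios were computed, and with 3 libraries against 3 the exact two-sided permutation test cannot go below p = 0.1. PPP1R15A to PPP1R15B was 1.52, 1.41 and 1.77 with glucose and 2.86, 3.15 and 2.35 without. No library without glucose reached the range of those with it, and the log2 ratio differed by 0.83 ± 0.16 (SE), with exact permutation p = 0.1 and 0.14 adjusted over the 7 ratios. This difference in ratio was the most even of the 7 relative to its error.

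The PERK message was higher relative to those of the other eIF2 kinases without glucose, and with 3 libraries against 3 no difference of any size could pass this test. The log2 ratio of EIF2AK3 to EIF2AK2 was −4.51, −4.82 and −4.01 with glucose and −3.71, −3.59 and −3.41 without, a difference of 0.88 ± 0.25. That to EIF2AK4 was higher by 0.87 ± 0.26 and that to EIF2AK1 by 1.18 ± 0.47. In each of these ratios the groups did not overlap, with exact permutation p = 0.1 and 0.14 adjusted. They share the EIF2AK3 counts and so are not separate pieces of evidence. EIF2AK3 is thinly counted, and its replicate 3 with glucose lay nearest to the libraries without glucose in all 3 ratios.

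ATF6 was higher relative to ATF6B without glucose, while the ratios to ERN1 overlapped between groups. The log2 ratio of ATF6 to ATF6B was 2.75, 4.51 and 3.85 with glucose and 4.93, 4.57 and 5.41 without. The groups did not overlap, but replicate 2 with glucose came close to the lowest library without it, and the difference was 1.27 ± 0.57 (exact permutation p = 0.1, 0.14 adjusted). The ratio of EIF2AK3 to ERN1 differed by 0.30 ± 0.49 on the log2 scale with overlapping groups (exact permutation p = 0.9). Its sign turned, to −0.18, without replicate 1 with glucose. XBP1 to ERN1 differed by 0.45 ± 0.45 (exact permutation p = 0.4), again with overlapping groups.

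**Figure D4:**
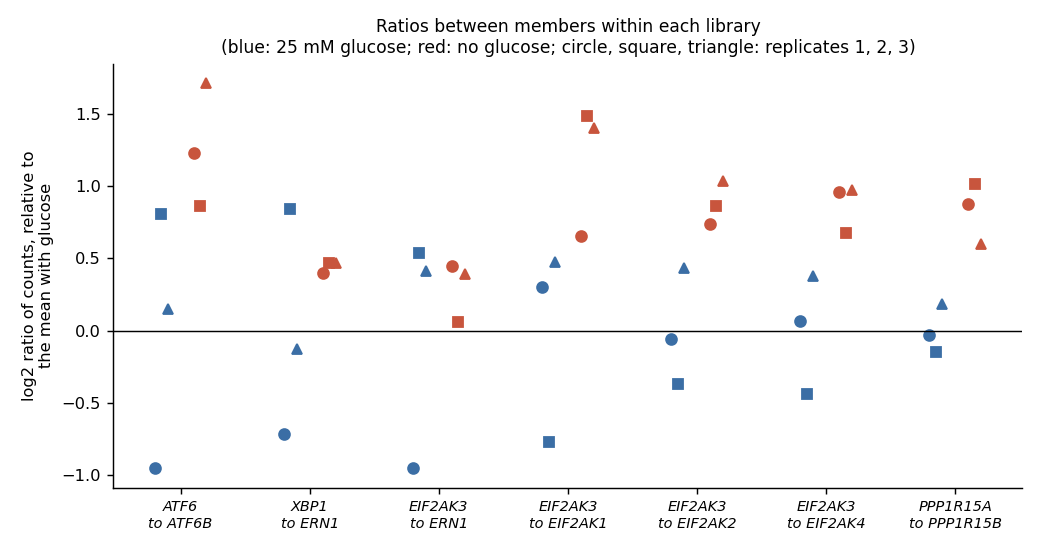
Log2 ratio of counts between pairs of members within each library, drawn relative to the mean with glucose; blue is 25 mM glucose, red is none, and circles, squares and triangles are replicates 1, 2 and 3. In 5 of the 7 ratios all red points lie above all blue points, and the PPP1R15A to PPP1R15B ratio is the tightest of these.

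Promoter letters of the members differed. RefSeq windows of 300 bases (250 before and 50 from each start on, GRCh38.p14) were found for 9 members, and 6 motifs were searched on both strands in all 35116 windows of the table. The ERSE, the element bound by ATF6 and XBP1 with NF-Y and spelled CCAAT, any 9 bases, CCACG, was in 0.0769% of windows and in 1 member, XBP1, at 52 to 34 bases before the start. A CRE, TGACGTCA, was in 1.85% of windows and in PPP1R15A. The C/EBP-ATF element TGATGCAA was in 0.866% of windows and in PPP1R15B. An interferon element spelled GAAA, any 2 bases, GAAA was in 3.57% of windows and in EIF2AK2, where it crosses the start. The UPRE, TGACGTGG (0.729% of windows), and the ERSE-II, ATTGG, any 1 base, CCACG (0.0541%), were in no member's window. The UPRE and the CRE begin with the same letters, and the ERSE and the ERSE-II share CCACG. ATF6, which rose the most, had none of the 6 motifs in its window, and EIF2AK1 had no window. The sites of XBP1 and PPP1R15A, which rose, and of PPP1R15B, which did not, are shown. Their part in which members rose was not tested. Fixed motif letters are in capitals, and each is 5′ to 3′ on the gene's strand.
XBP1 (chr22:28800578-28800646, minus strand): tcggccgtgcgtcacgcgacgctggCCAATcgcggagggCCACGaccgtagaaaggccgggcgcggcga
PPP1R15A (chr19:48872338-48872395, plus strand): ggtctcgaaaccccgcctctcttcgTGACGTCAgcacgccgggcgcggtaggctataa
PPP1R15B (chr1:204412012-204412067, minus strand): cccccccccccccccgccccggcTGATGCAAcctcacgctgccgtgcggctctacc
A match is a run of letters and not a measured binding site. These coordinates belong to the RefSeq build and not to hg19, on which the counts were made.

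Other genes whose windows carried the same ERSE letters as XBP1 were mostly higher without glucose. Beside XBP1 itself there were 24 such genes, of which 15 were tested, 13 rose and none fell, with a median log2 fold change of 1.60, beside 11.6% of all genes tested that rose and a median of 0.02. Of the 13 only SYNPO, an actin-associated gene named after its value was seen, had a lower log2 fold change (0.84 ± 0.25) than XBP1. The element was defined on chaperone promoters such as that of HSPA5, so this count is not independent of what is known of the pathway, and the genes were grouped after their values were seen. The cores of XBP1, HSPA5, CRELD2 and EIF2A are set side by side in the motif's own orientation, with CCAAT and CCACG in capitals.
XBP1: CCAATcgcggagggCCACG
HSPA5: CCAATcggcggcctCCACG
CRELD2: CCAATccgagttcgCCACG
EIF2A: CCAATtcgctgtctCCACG
The site printed for CRELD2 (chr22:49918554-49918572) also falls in the window of ALG12, and that for EIF2A (chr3:150546710-150546728) also in the window of SERP1. In each pair both genes rose. EIF2A, an initiation factor distinct from the eIF2 complex, had a log2 fold change of 1.60 ± 0.26, and SERP1, a stabilizer of membrane proteins, 1.16 ± 0.19. ALG12, a mannosyltransferase of N-glycan synthesis chosen after its value was seen, had 1.05 ± 0.32.

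Downstream of the sensors, most genes on the target lists of the 3 arms rose, beside 11.6% of all genes tested. Of 12 tested genes described as ATF6 targets all 12 rose, with a median log2 fold change of 2.47, and they did so on leaving out any 1 library. DERL3, the thirteenth on that list, did not pass the filter on low counts. CRELD2, a secreted stress protein, rose, with 18.0 ± 2.89 CPM with and 243 ± 29.5 CPM without glucose (SD, n = 3 in each), and HSPA5, the BiP chaperone that holds the sensors inactive, had a log2 fold change of 3.15 ± 0.24. ATF6 itself, at 1.24, was below all 12 of them, the lowest being 1.73.

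Targets of the spliced XBP1 factor rose in 13 of 18 cases and none fell, with a median log2 fold change of 1.12. DNAJB9, a co-chaperone that restrains IRE1, rose from 9.38 ± 2.11 to 55.9 ± 10.9 CPM. DNAJB11, a BiP co-chaperone, went from 68.2 ± 9.31 to 301 ± 20.1 CPM. EDEM2, SEC61B, SRPRB, SPCS1 and ARFGAP3 did not pass. Many of these genes also respond to ATF6, so the count does not separate the arms. Of 6 tested messages described as cut directly by IRE1, SCARA3 fell (−0.93 ± 0.22) and PMP22 rose (0.61 ± 0.20), with a median of 0.09. Over all genes tested 10.7% fell and 11.6% rose. The PMP22 call was lost when replicate 2 or 3 with glucose or no-glucose replicate 1 or 3 was left out (adjusted p = 0.0947 to 0.147, edgeR). It was also lost with library totals as scaling (0.0760) and with the replicate number as a block (0.110). The median was 0.35 without replicate 1 and −0.16 without replicate 2 with glucose. BLOC1S1, the substrate most often used to follow this decay and named after its value was seen, had −0.47 ± 0.20 and did not pass (adjusted p = 0.114).

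Targets of ATF4, which lies downstream of all 4 kinases, rose in 10 of 16 cases and fell in 1, with a median of 1.09. CEBPG, a partner of ATF4, rose from 84.3 ± 9.19 to 318 ± 71.4 CPM and DDIT3, which encodes CHOP, from 14.8 ± 1.15 to 48.3 ± 9.72 CPM. CHAC1, which degrades glutathione, fell from 11.3 ± 3.53 to 2.55 ± 1.75 CPM. ATF3, SESN2, DDIT4, SLC7A11 and XPOT did not pass, with log2 fold changes of −0.12, −0.17, 0.37, 0.36 and 0.45. CHOP is described as an inducer of PPP1R15A. The log2 fold change of DDIT3 was 1.70 ± 0.22, beside 0.71 ± 0.23 for PPP1R15A. Whether the change in DDIT3 bears on that of PPP1R15A was not tested.

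**Figure D5:**
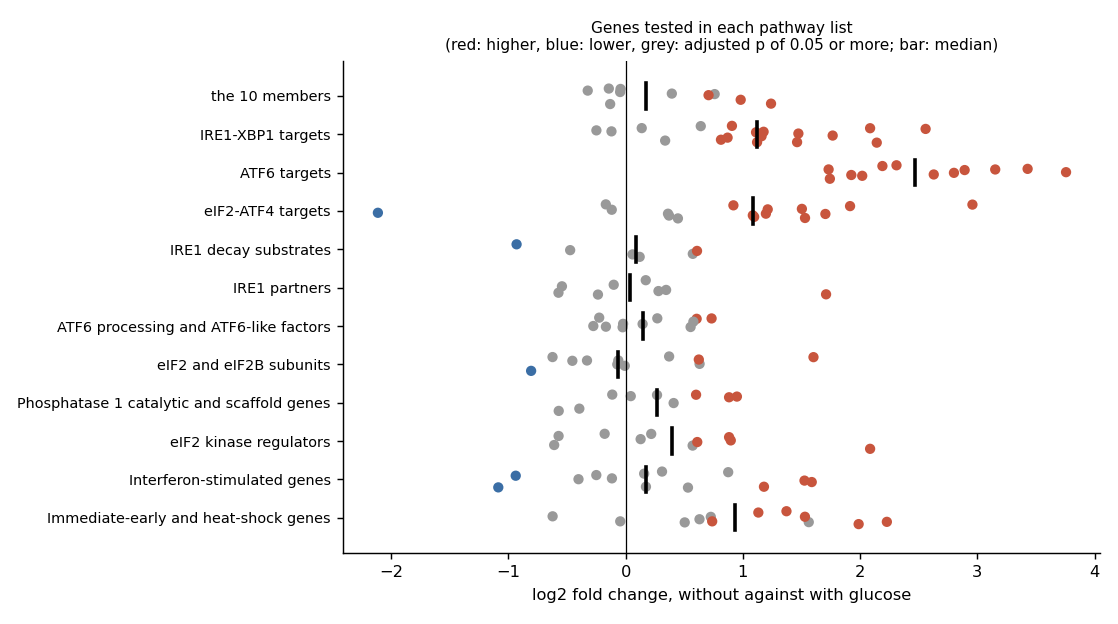
Log2 fold change without against with glucose of every tested gene in the members and in 11 pathway lists; red is higher, blue lower and grey an adjusted p of 0.05 or more, and black bars are medians. All 12 tested ATF6 targets are red with a median of 2.47, while the 10 members have a median of 0.17.

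Genes that act directly on or beside the members were called less often than those on the target lists. Over all genes tested 11.6% were higher and 10.7% lower without glucose. Of 8 tested partners of IRE1, SEC63, a translocon co-chaperone, rose (1.71 ± 0.24) and the others did not pass, with a median of 0.03. PTPN1, a phosphatase, had −0.57 ± 0.21 (adjusted p = 0.0677) and passed as lower without no-glucose replicate 2 (adjusted p = 0.0346, edgeR) and with DESeq2 (0.0343). Among 11 tested genes of ATF6 processing and ATF6-like factors, 2 rose, with a median of 0.14. These were MBTPS2, the site-2 protease that cuts ATF6 (0.61 ± 0.18), and the membrane factor CREB3L2 (0.73 ± 0.22). Neither passed when replicate 2 or 3 of either group was left out, nor did MBTPS2 without no-glucose replicate 1 (adjusted p = 0.0541 to 0.128 over these, edgeR) or with library totals as scaling (0.0639). With the replicate number as a block MBTPS2 and CREB3L2 did not pass either (adjusted p = 0.0911 and 0.0669, edgeR).

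The substrate of the kinases and its exchange factor showed no common direction. The counts in this paragraph stand beside 11.6% of all genes tested that rose and 10.7% that fell. Of the 8 eIF2 and eIF2B subunits, EIF2S3 rose (0.62 ± 0.20) and EIF2B5, the catalytic subunit of eIF2B, fell (−0.81 ± 0.22), with a median of −0.07. The list also held 3 other initiation factors, EIF2A, EIF2D and EIF5, of which EIF2A rose, and the median over all 11 was −0.06. EIF2S1, which carries the phosphorylated serine, had −0.07 ± 0.19 and did not pass. EIF2S3 was not called when any 1 library was left out or with either other scaling, and EIF2A was the gene of the list that still rose. EIF2B5 lost its call when with-glucose replicate 1 or no-glucose replicate 1 or 3 was left out (adjusted p = 0.0525, 0.0723 and 0.0696, edgeR). It also lost it with the replicate number as a block (adjusted p = 0.0518, edgeR), and with library totals 2 genes fell. Of 9 genes listed with phosphatase 1, PPP1CB, a catalytic subunit, rose (0.95 ± 0.22), as did PPP1R10 (0.60 ± 0.20). NCK1, which is on this list and on that of the kinase regulators, also rose (adjusted p = 0.0493, edgeR). The median over the 9 was 0.27. The number that rose was 1 with either other scaling, 1 without replicate 2 or 3 with glucose or no-glucose replicate 1, and 0 without no-glucose replicate 3. PPP1CB had an adjusted p of 0.0532 (edgeR) in that last setting. Of 10 regulators of the kinases 4 rose, with a median of 0.39. DNAJC3, which inhibits PERK and PKR and is also on the XBP1 target list, rose from 89.6 ± 24.3 to 381 ± 54.7 CPM, and IMPACT, an inhibitor of GCN2, had 0.90 ± 0.22. DELE1 also rose, and so did NCK1, which is counted in both lists. The number was 2 with either other scaling, 2 without replicate 2 or 3 with glucose or no-glucose replicate 1 or 2, and 1 without no-glucose replicate 3, where IMPACT had an adjusted p of 0.0678 (edgeR).

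Interferon-stimulated genes, to which EIF2AK2 belongs, moved in both directions. Of 13 tested 3 rose and 2 fell, beside 11.6% and 10.7% of all genes tested, with a median of 0.17. OAS3, a sensor of double-stranded RNA, fell (−0.94 ± 0.18) and IRF9, of the interferon signalling complex, rose (1.53 ± 0.30). A single gene rose without replicate 2 or 3 with glucose or no-glucose replicate 3, and without the last a single gene fell.

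The genes most like each sensor over the 6 libraries are given as a description. Among 11151 other genes with a mean of 20 or more counts, those with the highest Pearson correlation of log2 CPM with ERN1 were DAZAP2, ZNF747 and CREB1 (r = 0.990, 0.989 and 0.986). For ATF6 they were PIGV, TMEM35B and PABPC1L (0.999, 0.999 and 0.998), and for EIF2AK3 they were TRIP4, UPRT and RSPRY1 (0.996, 0.993 and 0.993). With 6 libraries in 2 groups such values can arise from the group difference, from shared variation within groups, or from picking the highest of 11151. For ERN1 the groups overlapped, and DAZAP2, ZNF747 and CREB1 did not pass. Which of these origins holds was not tested.

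Epithelial markers were uneven. KRT8 and KRT18, keratins of epithelial cells, made up nearly all of their sum and fell (log2 fold changes of −1.18 ± 0.20 and −0.90 ± 0.18). EPCAM (4.10 ± 1.54 CPM with and 3.09 ± 0.838 without glucose) and CDH1 (5.93 ± 1.18 and 7.88 ± 0.329 CPM), both adhesion molecules, were low and did not pass. CLDN4, a tight junction protein, was low and rose (0.748 ± 0.234 to 4.50 ± 1.47 CPM; SD, n = 3 in each). The summed level of 6 epithelial markers was 3118 to 3895 CPM with glucose and 1515 to 1823 CPM without, and that of 5 genes known to be high in A549 was 7031 to 7613 and 5380 to 6285 CPM. Among those 5, AKR1B10, AKR1C3 and ALDH3A1 fell, and the median log2 fold change was −0.92. ALDH1A1, the largest part of the sum, and AKR1C1 did not pass. Markers of leukocytes summed to 15.9 to 17.5 CPM with and 25.0 to 39.3 CPM without glucose, nearly all from CD68, and CD3E had no count. Fibroblast markers summed to 10.7 to 14.4 and 4.21 to 5.38 CPM with COL1A2 and DCN at 0, and endothelial markers to under 1 CPM in every library with VWF and KDR at 0.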

How the data were processed

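RNA from 6 A549 libraries, 3 per group, was primed with barcoded oligo-dT and amplified for 12 PCR cycles, per the labels' protocols. No molecular identifiers are mentioned, so reads need not be independent molecules. The deposited values are raw counts of reads per gene by Entrez number, for which the authors used STAR, HTSeq and hg19, per the submitters' processing notes. The sources used here give no versions, annotation or strand setting. Of 19240 genes 19178 were matched to symbols through RefSeq (GRCh38.p14). The 5 HTSeq summary lines stayed out; 43.1% to 44.7% of reads fell in genes.

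Groups were compared with the edgeR 4.0.16 quasi-likelihood F test (two-sided, TMM scaling, filterByExpr with a minimum count of 10, no covariate) in R 4.3.3, with Benjamini-Hochberg adjustment over 11886 genes and a threshold of 0.05. The SE was taken as |log2 fold change|/√F, so intervals derived from it are approximate; they carry the spread between libraries. Ratios between members had 0.5 added to each count. The script was tested on simulated data. Libraries of a group differed beyond sampling noise (chi-square per degree of freedom 22.1 to 57.3), so none were merged. Same-numbered libraries did not deviate together (r = −0.27, −0.12 and 0.04), so the numbers were not taken as pairs.

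The members, 11 pathway lists and 5 marker lists were chosen with earlier results of these data known. The lists cover targets of XBP1, ATF6 and ATF4, IRE1 decay substrates and partners, ATF6 processing, eIF2 and eIF2B, phosphatase 1, kinase regulators, interferon-stimulated and immediate-early genes. Named are all members, the 2 genes of each list with the smallest p and the first called in the other direction, and the 3 genes most correlated with ERN1, ATF6 and EIF2AK3; others were chosen after their values were seen. Alternatives were DESeq2-type size factors, library totals, no filter, a mean of 20 counts, DESeq2 1.42.0, a replicate block and each library left out.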

Additional observations from a re-analysis of the deposited data

How the results depend on the processing

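ATF6 and XBP1 kept their direction and call under all 12 alternatives. PPP1R15A kept its direction under all 12 and its call under 4. EIF2AK3 passed under 1, without replicate 3 with glucose, where PPP1R15A did not. In every setting 2 or 3 members rose and none fell. Of 42 named genes 37 kept their direction throughout and 25 also their side of the threshold. Without 1 library, the lowest and highest log2 fold changes were −0.47 and 0.47 for ATF6B, −0.14 and 0.025 for EIF2AK2, −0.15 and 0.052 for EIF2AK4, −0.33 and 0.0018 for PPP1R15B, and −0.0058 and 0.15 for CREB1. The log2 difference of the EIF2AK3 to ERN1 ratio was −0.18 to 0.57. Over all genes, 860 to 1292 rose and 781 to 1232 fell without 1 library, against 1376 and 1276 with all 6. With the replicate number as a block 984 rose and 911 fell, and among the 10 members only the PPP1R15A call changed (log2 fold change 0.68, adjusted p = 0.106, edgeR). Of the other named genes, PMP22, MBTPS2, CREB3L2, EIF2B5, PPP1R10 and PIGV lost their calls with the block (adjusted p = 0.0518 to 0.130, edgeR). Other scalings moved the median of all genes to 0.0029 and −0.036. ERN1, ATF6B and EIF2AK3 rest on 26 to 154 reads per library, and their coefficients of variation with glucose exceeded those that counting alone gives. The values were 65.0% against 14.4% for ATF6B and 37.7% against 13.7% for EIF2AK3, with ERN1 at 55.3%. Without glucose, ERN1 (7.10% against 10.7%) and EIF2AK3 (8.44% against 8.77%) lay below the counting value, and ATF6B (36.3%) lay above it. The counting value takes each read as an independent molecule, which reads need not be. The part of depth in this spread was not tested.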
